A study of Mus musculus with 4 samples.

Results

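The Iroquois homeobox genes of the mouse lie in 2 clusters of 3 genes each, Irx1, Irx2 and Irx4 on chromosome 13 and Irx3, Irx5 and Irx6 on chromosome 8. Their chromatin was described from lists of called histone mark regions on build mm9, taking every region that overlapped chromosome 13 from 72 to 73.5 Mb (1.5 Mb) or chromosome 8 from 94.2 to 95.3 Mb (1.1 Mb). These windows held 124 of the 76945 regions in the lists, 75 with H3K27me3 and 49 with H3K4me3, and all 124 lay wholly inside them. The cells were rosette stem cells, pluripotent cells with features of both naive and primed states, derived from 2 mouse embryonic stem cell lines, CGR8 of strain 129/Ola and R1 of strain 129. Both lines had been kept for 8 days in serum-free N2B27 medium on gelatin with serum coating, together with LIF, 2 µM of the Porcupine inhibitor IWP2 and 1 µM of the MEK inhibitor PD325901. Cells were fixed with formaldehyde, the chromatin was sonicated and precipitated with an antibody to either mark, and 1 library was sequenced for each line and mark, which gave 4 libraries. No treatment separated the lines, so a contrast of CGR8 with R1 is a contrast of 2 single cultures, and no expression was measured by which the cell state could be checked.

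Irx genes encode homeodomain transcription factors of the TALE class, which pattern the neural plate, heart, limb and other organs, and they are typically silent or low in pluripotent cells. Such developmental regulators are typical targets of Polycomb repressive complex 2, which trimethylates histone H3 at lysine 27 (H3K27me3), usually at CpG-rich promoters. H3K4me3 marks the start sites of active genes, and in pluripotent cells it is also found inside H3K27me3 at many silent developmental genes, a combination called bivalent. In bulk chromatin, a stretch with both marks can come from nucleosomes that carry both or from cells or alleles that carry one each, and these cannot be told apart here.

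The order of the genes in RefSeq is Adamts16, Irx1, Irx2, Irx4, Ndufs6 and Mrpl36 along chromosome 13, and Fto, Irx3, Irx5, Irx6, Mmp2 and Lpcat2 along chromosome 8. That annotation is on GRCm38.p6 and the lists are on mm9, so no region below is assigned to a gene. Promoter sequences of Irx2, Irx4 and Irx3 (3 of the 6 genes) were matched in RefSeq and are shown because CpG-rich promoters are the usual seat of both marks. Each run gives the 250 bases before the annotated start, 5′ to 3′ on the strand of the gene, with positions on GRCm38.p6 and every CG in capitals. Promoters of Irx1, Irx5 and Irx6 are named only.
Irx2, chr13:72628570-72628819, plus strand: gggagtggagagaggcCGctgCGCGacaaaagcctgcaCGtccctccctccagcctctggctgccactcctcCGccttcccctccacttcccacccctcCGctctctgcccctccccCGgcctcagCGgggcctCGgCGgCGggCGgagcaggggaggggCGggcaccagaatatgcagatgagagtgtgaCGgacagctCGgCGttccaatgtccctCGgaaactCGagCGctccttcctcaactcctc
Irx4, chr13:73260247-73260496, plus strand: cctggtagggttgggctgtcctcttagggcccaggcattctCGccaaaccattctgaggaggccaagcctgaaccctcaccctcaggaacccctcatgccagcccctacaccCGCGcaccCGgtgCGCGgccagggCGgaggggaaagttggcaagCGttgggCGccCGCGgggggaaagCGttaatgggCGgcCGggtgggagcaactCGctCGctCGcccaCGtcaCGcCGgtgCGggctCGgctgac
Irx3, chr8:91801655-91801904, minus strand: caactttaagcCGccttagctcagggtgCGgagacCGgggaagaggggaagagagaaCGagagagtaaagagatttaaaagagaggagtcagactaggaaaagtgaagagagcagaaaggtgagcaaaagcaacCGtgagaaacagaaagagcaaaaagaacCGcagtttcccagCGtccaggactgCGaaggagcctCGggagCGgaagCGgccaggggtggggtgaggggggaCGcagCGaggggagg

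All 3 sequences were richer in CG than the median promoter. The Irx4 sequence held 22 CG (68.8% G and C), the Irx2 sequence 19 (68.4%) and the Irx3 sequence 13 (56%). The median over 32851 RefSeq promoters of the same length was 6, with quartiles of 2 and 16, so Irx3 lay inside the middle range and the others above it. At least as many CG were found in 14.8% of all promoters for Irx4, 19.7% for Irx2 and 31.5% for Irx3. Relative to the number expected from base composition, CG reached 0.744 in Irx4, 0.666 in Irx2 and 0.79 in Irx3, against a median of 0.374.

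For H3K27me3, CGR8 had 14575 called regions and R1 had 12511, with median widths of 7600 and 6400 bp. The H3K4me3 lists held 25241 and 24618 regions, with a median of 2000 bp in each. The score is the value the authors deposited for each region, without a unit, and it ranks regions within a list. In regions of up to 400 bp it matched a sum over 200 bp windows. If this holds for all regions, wide ones score high, so score per kb is given beside it. From the scores of the shortest regions, a mean of reads per window of 200 bp was recovered, which was 2.11 in CGR8 and 1.92 in R1 for H3K27me3, the R1 value from 2 regions, and 0.74 and 0.706 for H3K4me3. The lowest score listed was 70.6 in CGR8 and 59.4 in R1 for H3K27me3, and 38.5 and 37.3 for H3K4me3. Where no region is listed, none was called, and signal outside the lists was not measured.

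H3K27me3 covered far more of both Irx windows than of the typical window of equal size. On chromosome 13, 17 regions covered 206.4 kb in CGR8 (13.8% of the window) and 15 regions covered 171.4 kb in R1 (11.4%), a mean of 12.6% ± 1.65 (SD, n = 2 lines). On chromosome 8, 28 regions covered 264 kb in CGR8 (24%) and 15 regions covered 126.4 kb in R1 (11.5%), a mean of 17.7% ± 8.85 (SD, n = 2). The median window of the genome had 3.44% and 2.63% at the length of the chromosome 13 window, and 3.17% and 2.33% at that of chromosome 8, in CGR8 and R1. Of 1747 windows, 126 in CGR8 (7.21%) and 83 in R1 (4.75%) held more than the chromosome 13 window. Of 2388 windows, 23 in CGR8 (0.963%) and 147 in R1 (6.16%) held more than the chromosome 8 window. H3K4me3 covered 1.65% and 1.91% of the chromosome 13 window and 2.25% and 2.33% of the chromosome 8 window, and between 31.2% and 43.8% of windows held more. The median window had 1.37% and 1.32% H3K4me3 at the length of the chromosome 13 window, in CGR8 and R1. At the length of the chromosome 8 window it had 1.24% and 1.2%. The Irx windows were thus high for H3K27me3. For H3K4me3 both lay above the median, the chromosome 13 window nearer to it than that of chromosome 8.

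**Figure D1:**
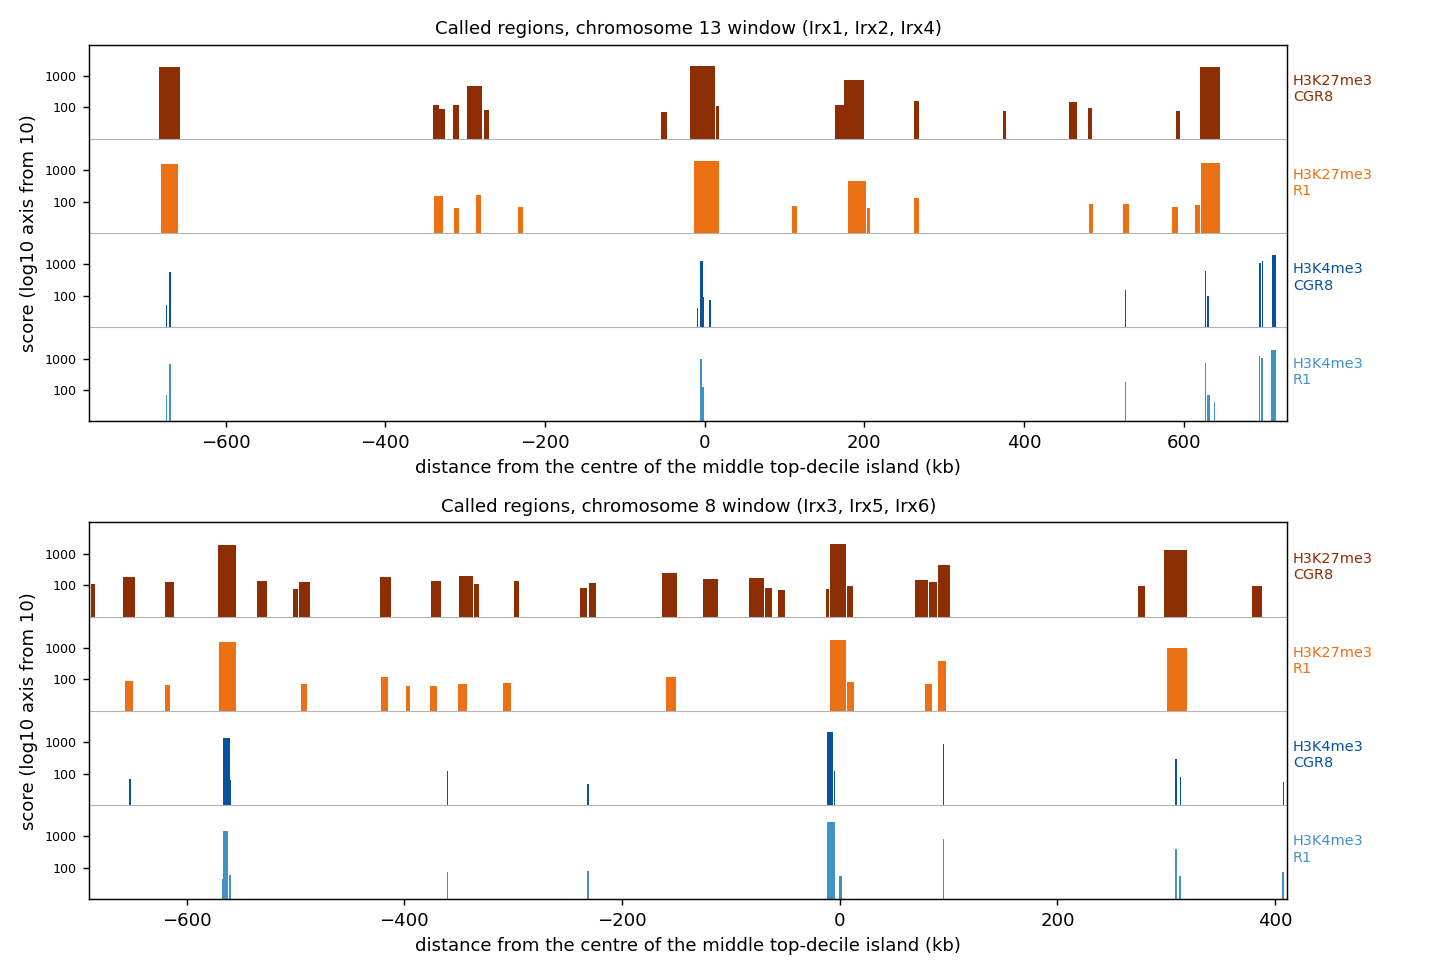
Called regions in both Irx windows, by line and mark, with the distance from the centre of the middle of the 3 strongest islands in kb on the horizontal axis. Each bar spans a region, and its height is the deposited score on a log10 axis that begins at 10. In each window 3 H3K27me3 bars near or above 1000 stand over low ones in both lines, and H3K4me3 bars sit under them.

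The 3 highest-scoring H3K27me3 regions of each cluster, called strong here, overlapped between the lines at all 6 places. Of the 9778 CGR8 regions in the whole list that overlapped R1, 8323 lay outside the top 10% by score, which held 1457 regions. Of the 10144 R1 regions that overlapped CGR8, 8893 lay outside the top 10%, which held 1251. Nearly all top regions of both lists were thus shared, so this overlap was not particular to the Irx windows. On chromosome 13 the first strong region ran over chr13:72086601-72113400 in CGR8 (26.8 kb, score 1960) and chr13:72090201-72110600 in R1 (20.4 kb, score 1556). The middle one ran over chr13:72752001-72783600 in CGR8 (31.6 kb, score 2141) and chr13:72757001-72789000 in R1 (32 kb, score 1910). The last ran over chr13:73391601-73416600 in CGR8 (25 kb, score 2006) and chr13:73391801-73415800 in R1 (24 kb, score 1730). The edges of the last region lay within 0.8 kb of each other in the 2 lines, and the first region differed in width by 6.4 kb. The middle one, as called, lay 5 kb later in R1 at its start and 5.4 kb later at its end. At that end CGR8 had a separate call, chr13:72784801-72788200 (3.4 kb, score 109), which the R1 region also overlapped. The difference at the end thus reflects where the CGR8 call was split. The centres of the 3 regions were 668 and 636 kb apart in CGR8 and 673 and 631 kb apart in R1.

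On chromosome 8 the first strong region ran over chr8:94318201-94334400 in CGR8 (16.2 kb, score 1845) and chr8:94318601-94334400 in R1 (15.8 kb, score 1568). The middle one ran over chr8:94880201-94894600 in CGR8 (14.4 kb, score 2088) and chr8:94880401-94894600 in R1 (14.2 kb, score 1770). The last ran over chr8:95187001-95208400 in CGR8 (21.4 kb, score 1284) and chr8:95189401-95208000 in R1 (18.6 kb, score 965). The first and middle regions ended at the same position in both lines, and their left edges lay within 0.4 kb. The centres of the 3 regions were 561 and 310 kb apart in CGR8 and 561 and 311 kb apart in R1, closer than on chromosome 13.

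These 12 strong regions, 3 in each cluster and line, stood within the top 0.967% to 3.65% of their lists by score and all held H3K4me3. They carried 71% and 77.9% of the summed H3K27me3 score on chromosome 13 in CGR8 and R1, and 59.5% and 77% on chromosome 8. By length they were a minor portion, 40.4% and 44.6% of the cover on chromosome 13 and 19.7% and 38.4% on chromosome 8. Their number was set by the rule, and which gene lies in which region was not determined here.

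Strong regions of the 2 clusters differed in shape. As single calls, all 3 on chromosome 8 were narrower than all 3 on chromosome 13 within each line, 14.4 to 21.4 kb against 25 to 31.6 kb in CGR8 and 14.2 to 18.6 kb against 20.4 to 32 kb in R1. This depends on where calls were split. Joined with calls less than 5 kb away, the middle region of chromosome 8 held 23.6 kb in CGR8 and 20.4 kb in R1. Those of chromosome 13 then held 26.8, 35 and 25 kb in CGR8 and 20.4, 32 and 30.2 kb in R1. The first and middle regions of chromosome 8 were also the densest, with scores per kb of 114 and 145 in CGR8 and 99.2 and 125 in R1. On chromosome 13 the scores per kb were 73.1, 67.8 and 80.3 in CGR8 and 76.3, 59.7 and 72.1 in R1, in the order along the chromosome. The last region of chromosome 8 was the least dense, at 60 and 51.9. Over the top 10% of each list by score, which began at 549 in CGR8 and 531 in R1, the median was 50.6 and 54.7 per kb and the median width 18800 and 16600 bp. With 1 library for each line, and both clusters measured in the same libraries, these differences between clusters were not tested.

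**Figure D2:**
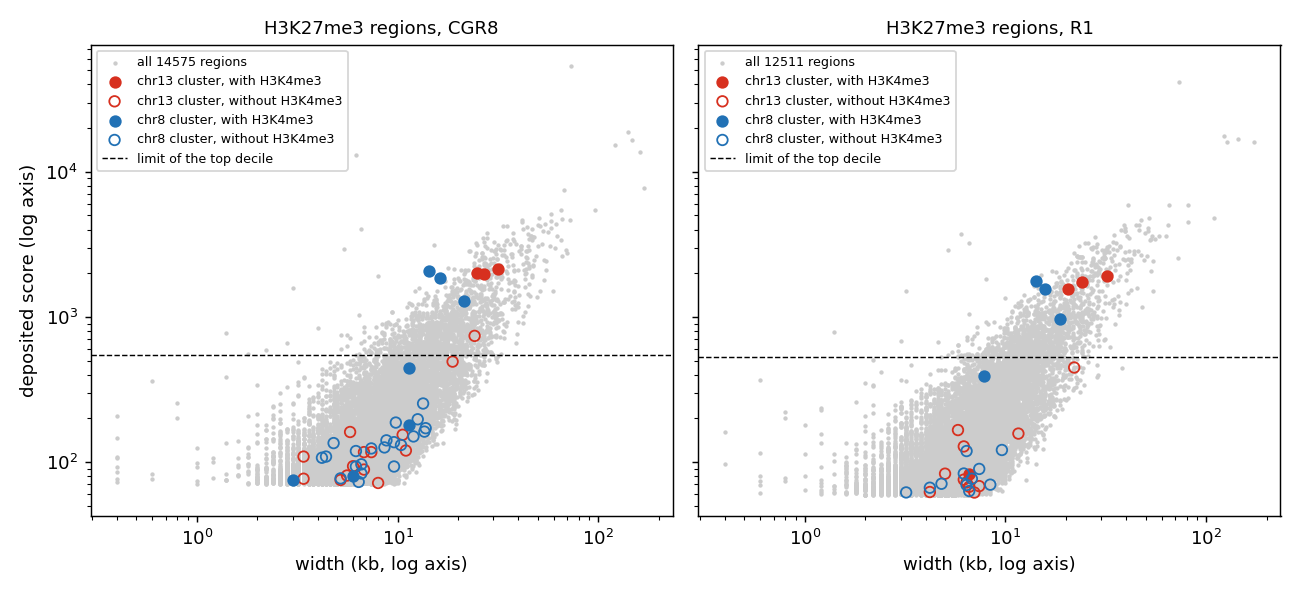
Width in kb against deposited score of every H3K27me3 region, CGR8 on the left and R1 on the right, both axes on a log scale. Grey points are all regions of the list, red and blue points those of the chromosome 13 and chromosome 8 windows, filled where H3K4me3 overlaps, and the dashed line is the lower limit of the top 10% by score. The 3 strong regions of each cluster lie above the line and are filled, and those of chromosome 8 lie left of those of chromosome 13.

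The fourth region by score in each cluster is called intermediate here, and the 2 clusters differed in its H3K4me3. On chromosome 13 it ran over chr13:72945401-72969600 in CGR8 (24.2 kb, score 740) and chr13:72950201-72972200 in R1 (22 kb, score 448), and no H3K4me3 was called in it in either line. In CGR8 it ranked in the top 6.36% of the list, and 92.5% of the CGR8 regions in the top 10% overlapped H3K4me3. In R1 it lay just outside the top 10%, at 12.7%. On chromosome 8 the intermediate region ran over chr8:94979401-94990800 in CGR8 (11.4 kb, score 448) and chr8:94979001-94986800 in R1 (7.8 kb, score 391). It held a single narrow H3K4me3 region, chr8:94984001-94985200 in CGR8 (score 880) and chr8:94983801-94985200 in R1 (score 803). At 733 and 573 per kb this was the densest H3K4me3 of the chromosome 8 window in each line.

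The remaining H3K27me3 regions scored lower than these within their cluster and line. On chromosome 13 they numbered 13 in CGR8, scoring 71.7 to 492 with a median of 15.6 per kb, and 11 in R1, scoring 61.6 to 166 with a median of 12.6 per kb. On chromosome 8 they numbered 24 in CGR8 (72.9 to 253, median 14.9 per kb) and 11 in R1 (61.7 to 121, median 12.6 per kb). The median region of the whole list had 19.6 per kb in CGR8 and 20.6 in R1. With the strong and intermediate regions included, 10 of 17 regions of CGR8 and 8 of 15 of R1 on chromosome 13 scored below the median of their list. On chromosome 8 these were 14 of 28 and 9 of 15. Per kb, the median of the remaining regions was below that of the list in both clusters and lines. The highest-scoring of the remaining regions was chr13:72473401-72492200 in CGR8 (18.8 kb, score 492), where R1 had chr13:72484401-72490200 (5.8 kb, score 166). At 492 it stood in the top 11.5% of the CGR8 list, above the intermediate region of chromosome 8.

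Regions of both lines less than 5 kb apart were joined into islands, which gave 16 on chromosome 13 and 21 on chromosome 8. On chromosome 13, 10 islands held regions of both lines, 3 of CGR8 alone and 3 of R1 alone. On chromosome 8, 12 held both lines, 8 CGR8 alone and 1 R1 alone. Of the 7 islands of at least 10 kb on chromosome 13, 4 grew from the strong and intermediate regions, chr13:72086601-72113400 (26.8 kb), chr13:72752001-72789000 (37 kb), chr13:72933601-72978200 (44.6 kb, the widest) and chr13:73384801-73416600 (31.8 kb). Lower-scoring regions made up the other three, chr13:72430601-72445000 (14.4 kb), chr13:72473401-72500200 (26.8 kb) and chr13:73226401-73237000 (10.6 kb, CGR8 alone).

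Chromosome 8 had 13 islands of at least 10 kb. The strong and intermediate regions formed chr8:94318201-94334400 (16.2 kb), chr8:94876401-94902000 (25.6 kb), chr8:94958401-94990800 (32.4 kb, the widest) and chr8:95187001-95208400 (21.4 kb). Lower-scoring regions of both lines formed chr8:94230401-94241800 (11.4 kb), chr8:94386601-94403000 (16.4 kb), chr8:94512801-94522800 (10 kb), chr8:94538801-94557600 (18.8 kb), chr8:94580001-94595000 (15 kb) and chr8:94726001-94739400 (13.4 kb). Lower-scoring regions of CGR8 alone formed chr8:94651001-94665200 (14.2 kb), chr8:94763601-94777200 (13.6 kb) and chr8:94806001-94827400 (21.4 kb). Between the islands of the first and the middle strong region lay 12 others on chromosome 8 (151.8 kb) and 5 on chromosome 13 (63.2 kb). Between those of the middle and the last the order was the opposite, with 2 on chromosome 8 (39 kb) and 8 on chromosome 13 (93.8 kb).

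Gaps between islands joined over both lines had a higher median on chromosome 13. Of the 21 islands on chromosome 8, 8 came from CGR8 alone, and in R1 alone each window had 13 islands. Gaps within a single line were not measured, so the difference may not hold in each. On chromosome 13, 15 gaps had a median of 47 kb. The widest, chr13:72113401-72430600, was 317.2 kb long and followed the first strong region. On chromosome 8, 20 gaps had a median of 26.1 kb, and the widest, chr8:94990801-95163200, was 172.4 kb long and lay between the intermediate and the last strong region. None of the 15 gaps on chromosome 13 held H3K4me3 in either line. On chromosome 8, 1 of 20 did, with a small region at chr8:94528201-94529200 in both lines (score 122 in CGR8 and 75.5 in R1). Apart from that region, H3K4me3 between the first and the last island of each window lay in islands in these 4 libraries. Islands join both lines and span short breaks, so this does not mean overlap with H3K27me3. The R1 region chr8:94657401-94659000 lay in a break between joined CGR8 regions and overlapped no H3K27me3 of either line. The CGR8 region chr13:73297201-73298400 lay in an island of R1 alone.

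Most H3K4me3 regions of the windows overlapped H3K27me3 of the same line. On chromosome 13 these were 8 of 12 for CGR8 and 11 of 14 for R1, and on chromosome 8 they were 10 of 12 and 8 of 11. The corresponding shares of the whole H3K4me3 lists were 28.2% and 29.1%. In the other direction the windows were not high, with H3K4me3 in 3 of 17 H3K27me3 regions of CGR8 and 4 of 15 of R1 on chromosome 13, and 7 of 28 and 4 of 15 on chromosome 8, against 41.3% and 48.8% of the lists. The split by score separated these. In the top 10%, H3K4me3 was in 3 of 4 CGR8 regions and 3 of 3 R1 regions on chromosome 13 and 3 of 3 in each line on chromosome 8, beside 92.5% and 95.9% of the lists. Outside it, 0 of 13 and 1 of 12 did on chromosome 13 and 4 of 25 and 1 of 12 on chromosome 8, beside 35.6% and 43.6%. Most regions outside the top 10% thus lacked H3K4me3 and most inside it had it, which was also so in the whole lists. Inside the top 10% the windows held few regions, nearly all with H3K4me3 as in the lists. Outside it, the share with H3K4me3 was below that of the list in both windows and lines.

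Inside the strong regions of chromosome 13 H3K4me3 was narrow and lay away from the edges. The first strong region of chromosome 13 held chr13:72099401-72101800 in CGR8 (score 597) and chr13:72099201-72102000 in R1 (score 700), 0.6 and 0.2 kb from the centre of the H3K27me3 region. The middle one held chr13:72764601-72768000 in CGR8 (score 1326) and chr13:72764601-72767400 in R1 (score 946), with at least 7.6 kb of H3K27me3 on each side. The last one held chr13:73397201-73399000 in CGR8 (score 615) and chr13:73397401-73399000 in R1 (score 713), 5.6 kb from the left edge in both lines. H3K4me3 scores in the first and last regions were higher in R1, and in the middle region higher in CGR8.

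On chromosome 8 the first strong region held the widest stretch with both marks in both lines, chr8:94323001-94327000 (4 kb). Its H3K4me3 region was chr8:94322801-94328800 in CGR8 (6 kb, score 1400) and chr8:94323001-94327000 in R1 (4 kb, score 1462). The middle strong region met the highest H3K4me3 score of the window, chr8:94877201-94883400 in CGR8 (6.2 kb, score 2144) and chr8:94877801-94884800 in R1 (7 kb, score 2805). Of the 49 H3K4me3 regions in the windows, the R1 one was alone in reaching the top 10% of its list. It was also off centre, reaching 3 kb past the left edge of the strong H3K27me3 region in CGR8 and 2.6 kb in R1, and 87.1% and 62.9% of it lay within called H3K27me3. In CGR8 a low-scoring H3K27me3 region (score 74.6), chr8:94876401-94879400, covered part of the overhang, and R1 had none there. The last strong region had H3K4me3 of lower score, chr8:95197001-95199000 in CGR8 (score 290) and chr8:95197201-95199000 in R1 (score 400), 0.3 and 0.6 kb from its centre.

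**Figure D3:**
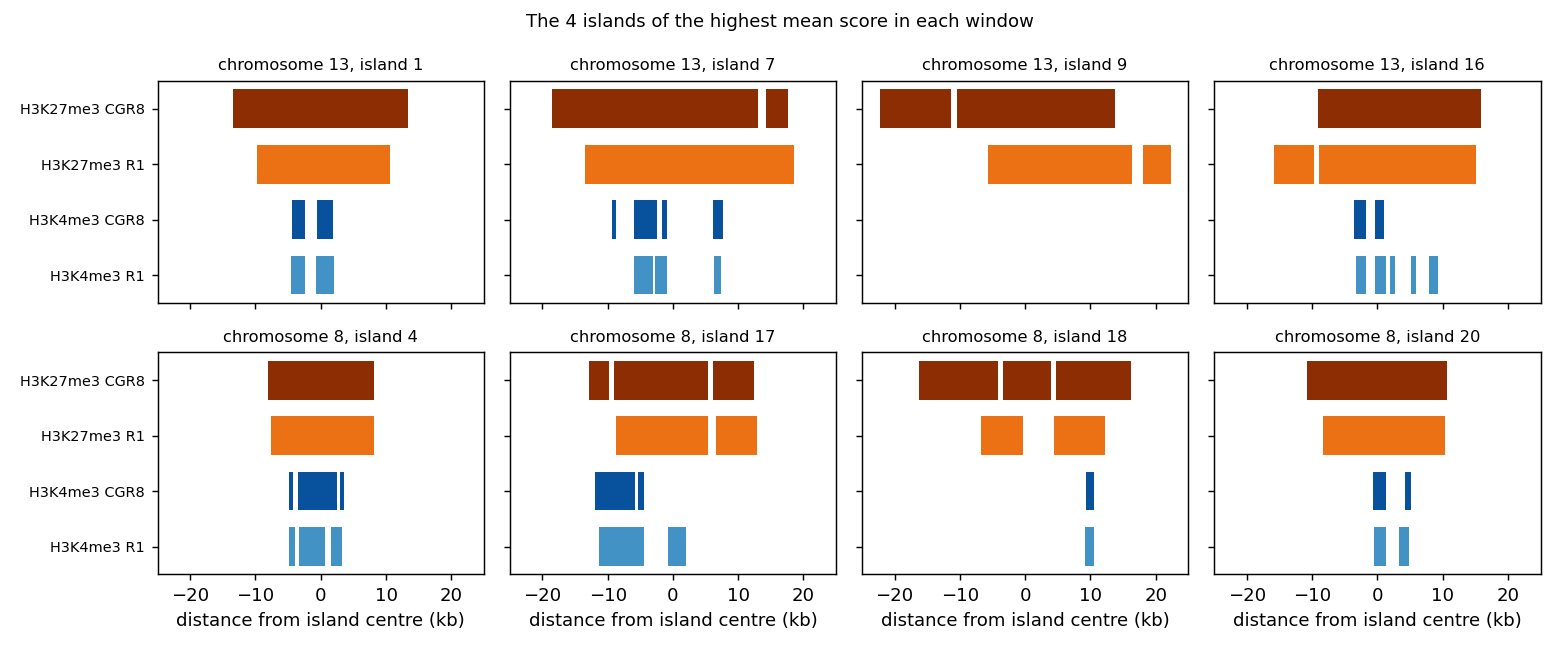
Regions of both marks and lines in the 4 islands of the highest mean score in each window, chromosome 13 above and chromosome 8 below, with the distance from the island centre in kb on the horizontal axis. Each bar is a called region. H3K4me3 bars are absent from the third panel of chromosome 13, and in the second panel of chromosome 8 they begin left of the widest H3K27me3 bar.

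Together the 3 strong regions held 8 H3K4me3 regions in CGR8 and 10 in R1 on chromosome 13, and 7 in each line on chromosome 8. H3K4me3 took 16.8% and 22% of their length on chromosome 13 and 27.3% and 35.8% on chromosome 8, in CGR8 and R1. Stretches with both marks in both lines numbered 8 on chromosome 13 (12.2 kb) and 9 on chromosome 8 (13.6 kb). By region, H3K4me3 took 44.4%, 29.2% and 13.1% of the strong regions of chromosome 8 in CGR8 and 43%, 50.7% and 18.3% in R1, in the order along the chromosome. On chromosome 13 it took 16.4%, 20.3% and 12.8% in CGR8 and 24.5%, 17.5% and 25.8% in R1. The higher share on chromosome 8 thus came from its first and middle regions, and its last region lay within the range of chromosome 13 in each line. In kb the totals were close, at 14 on chromosome 13 and 14.2 on chromosome 8 in CGR8 and 16.8 and 17.4 in R1.

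Of the 4 highest H3K4me3 scores of the chromosome 13 window in each line, 3 lay outside H3K27me3, and the other was that of the middle strong region. Those outside were chr13:73481401-73486400 in CGR8 (score 2043) and chr13:73479801-73486400 in R1 (score 1950), chr13:73468201-73470200 (1287) and chr13:73468001-73469800 (1028), and chr13:73464801-73467400 (1152) and chr13:73464601-73466800 (1184). All lay 48.2 to 64.8 kb past the last strong region, with no H3K27me3 in either line. They are at the edge of the window, and Ndufs6 and Mrpl36, a subunit of mitochondrial complex I and a mitochondrial ribosomal protein, follow Irx4 in the gene order, though the genes at these regions were not determined. Of the H3K4me3 regions scoring above 200, 3 of 6 on chromosome 13 overlapped H3K27me3 in each line, and on chromosome 8 all 4 did in each line. The share above 200 over the whole lists was not computed, and at all scores it was 28.2% in CGR8 and 29.1% in R1. The 3 without overlap are those at the edge of the window, so the contrast depends on where the window ends.

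Lines differed mainly on chromosome 8 and mainly outside the strong H3K27me3 regions. CGR8 had 1.2 times the H3K27me3 cover of R1 on chromosome 13 and 2.09 times on chromosome 8, beside 1.35 times over the whole lists. The 3 strong regions alone gave 1.09 and 1.07, and the rest gave 1.29 on chromosome 13 (123 kb against 95 kb) and 2.72 on chromosome 8 (212 kb against 77.8 kb). For all of chromosome 8 the ratio was 1.6, and for all of chromosome 13 it was 1.46. In the 5 Mb on either side of the windows it was 1.46 for chromosome 8 and 1.33 for chromosome 13. H3K4me3 cover differed less, at 0.867 and 0.969 in the windows and 1.06 over the lists.

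Scores were also compared for regions that overlapped exactly 1 region of the opposite line. The middle strong region of chromosome 13 is not among them, since the R1 region there overlapped 2 of CGR8. On chromosome 8 all 12 such H3K27me3 regions scored higher in CGR8, with a median log2 ratio of 0.77. The 3 strong ones had log2 ratios of 0.24, 0.24 and 0.41, and the 9 outside the top 10% in both lines a median of 0.92 and a range of 0.16 to 1.5. The largest ratio belonged to chr8:94539401-94552000 in CGR8 (score 197) and chr8:94538801-94547200 in R1 (score 69.8). On chromosome 13 all 8 were higher in CGR8, with a median of 0.33 and a range of 0.14 to 1.57. Over all 8167 pairs the median was 0.25 and 5976 were higher in CGR8. For pairs outside the top 10% in both lines the median was 0.27 over all chromosomes, 0.42 on chromosome 8 and 0.27 for all pairs in the flanks of the chromosome 8 window (n = 46).

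H3K4me3 showed no such shift. Of 7 pairs on chromosome 8, 4 scored higher in CGR8, with a median log2 ratio of 0.08 and a range of -0.76 to 0.69, and of 9 on chromosome 13, 4 did, with a median of -0.04. All 21972 pairs had a median of 0.03. Chromosome 8 ranked first of the 19 autosomes by the median log2 ratio of both marks, at 0.37 for H3K27me3 and 0.06 for H3K4me3. The CGR8 H3K27me3 library also had more reads per window and a higher lowest score than that of R1. The part of read depth, of the calling limit and of the chromosome in the difference on chromosome 8 was not tested.

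**Figure D4:**
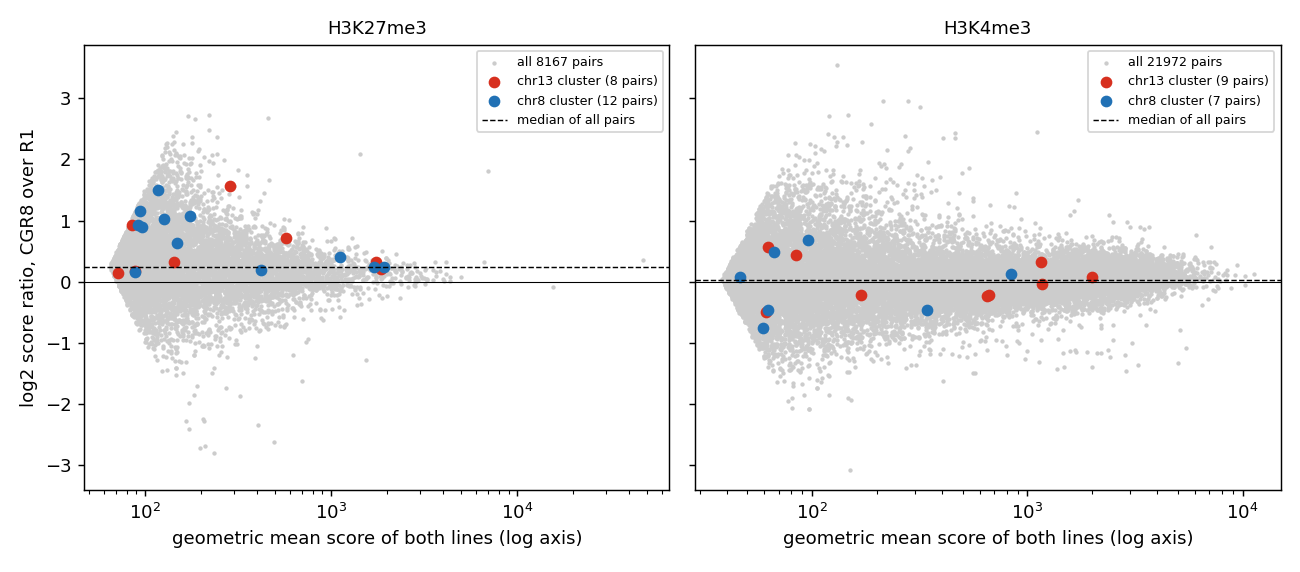
Log2 ratio of the deposited score, CGR8 over R1, against the geometric mean score of both lines on a log axis, for regions paired 1 to 1 between the lines, H3K27me3 on the left and H3K4me3 on the right. Grey points are all pairs, coloured points those of the Irx windows, and the dashed line is the median of all pairs. All 20 H3K27me3 pairs of the windows lie above 0, and the H3K4me3 pairs lie on both sides.

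Regions called in a single line were common for H3K27me3 on chromosome 8 in CGR8. There 14 of 28 regions overlapped R1, beside 67.1% of the list, and 13 of 15 in R1 overlapped CGR8, beside 81.1%. On chromosome 13 these were 12 of 17 and 10 of 15. Outside the top 10%, the chromosome 8 window shared 11 of 25 regions of CGR8 and 10 of 12 of R1, and the chromosome 13 window 8 of 13 and 7 of 12, against 63.4% and 79% of the lists. H3K4me3 was shared by 11 of 12 and 11 of 14 regions on chromosome 13 and 11 of 12 and 10 of 11 on chromosome 8, against 89.8% and 92.6%.

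On chromosome 8, 10 H3K27me3 regions of at least 5 kb were called in CGR8 alone, 83.6 kb in all, scoring 72.9 to 171. They were chr8:94353801-94363400, chr8:94386601-94391800, chr8:94651001-94657000, chr8:94659001-94665200, chr8:94763601-94777200, chr8:94806001-94819800, chr8:94820801-94827400, chr8:94832401-94838800, chr8:95163201-95169800 and chr8:95267601-95277200. The widest of them, chr8:94806001-94819800 (13.8 kb), lay between the first and the middle strong region. In R1 alone there was 1, chr8:94580001-94586800 (6.8 kb, score 76.7). On chromosome 13 the lines were even, with 4 in CGR8 (35.2 kb), chr13:72494601-72500200, chr13:72715801-72723800, chr13:72933601-72944600 and chr13:73226401-73237000. R1 had 4 as well (25.8 kb), chr13:72536401-72543000, chr13:72880201-72886600, chr13:73295201-73301800 and chr13:73384801-73391000. The R1 region chr13:73295201-73301800 held H3K4me3 at chr13:73297201-73298400 (score 182), and CGR8 had H3K4me3 at the same place (score 156) without H3K27me3.

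Breadth separated the clusters at its wide end, while the medians went the other way. The median H3K27me3 region had 7400 bp in CGR8 and 6600 bp in R1 on chromosome 13, and 9200 and 6800 bp on chromosome 8. The median island had 8.7 kb on chromosome 13 and 13.4 kb on chromosome 8. Regions of at least 20 kb numbered 4 in each line on chromosome 13, and 1 in CGR8 and 0 in R1 on chromosome 8, beside 5.34% and 3.59% of the lists. In CGR8, H3K27me3 regions were denser along chromosome 8, with 25.5 per Mb against 11.3 on chromosome 13, while in R1 they were 13.6 and 10 per Mb. The chromosome 8 window therefore combined strong regions that were narrower as single calls with more lower-scoring ones in CGR8. In R1 its cover of 11.5% was close to the 11.4% of chromosome 13.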

How the data were processed

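Lists of called regions from 4 ChIP-seq libraries were used, 1 for each of 2 lines and 2 marks. For each region the authors deposited its position and a score without a unit. Per the submitters' processing notes, reads were processed on mm9 with tools that included bedtools 2.20.1, SICER 1.1 (calls broad regions) and Bowtie2 2.0.2 (aligns reads). Their settings, any control library and the limit for calling were not given in the sources used here. In the protocol both antibodies are credited to Diagenode, while the sample labels name Millipore for H3K27me3.

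Starts were counted from 1. A region was shared, or held the other mark, on an overlap of at least 1 bp. H3K27me3 regions of both lines less than 5 kb apart were joined into islands. Score ratios were taken for regions with a single partner. Comparison windows were consecutive windows of the same length along the autosomes and X, and flanks were 5 Mb on each side. Reads per window came from regions of up to 400 bp, whose scores matched, within 1e-06, the summed minus natural log of Poisson probabilities of their 200 bp windows. No test was run, since each line and mark has 1 library. Overlap, joining and depth recovery were checked on simulated data.

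By rule, the text names the 6 Irx genes, islands of at least 10 kb, the 3 highest-scoring regions of each mark, cluster and line, the widest gap, and regions of at least 5 kb called in a single line. The members, lists and rule were chosen with earlier results of these data known. The top 10%, the intermediate region, the flanks, the score limit of 200 and other regions named by position were chosen after their values were seen. Genes of like pattern and regions by gene were not analysed here, as no mm9 annotation was used. Computations used matplotlib 3.10.9, pandas 2.3.3, scipy 1.17.1 and numpy 2.4.6 under Python 3.11.15. Alternatives are given in the closing section.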

Additional observations from a re-analysis of the deposited data

How the results depend on the processing

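Of 66 values under alternatives for 16 results, 52 moved by less than the spread between lines, or 1.5 times for counts, 14 moved by more and 0 changed direction. Some of the 52 were fixed in advance. For a mean of the 2 lines, leaving out a line gives the value of the other, which cannot exceed that spread. Keeping only regions wholly inside the windows changed nothing, since all 124 were. Only the cover ratios of CGR8 over R1 have a direction that could change, as the other results are counts and percentages. In the higher-scoring 50% of each list, chromosome 13 had 8 islands, 8.83% H3K27me3 cover and 1.17% H3K4me3 cover, and chromosome 8 had 1.25% H3K4me3 cover. There, H3K27me3 regions with H3K4me3 were 42.9% on chromosome 13 (22.2% with all regions) and 44% on chromosome 8 (25.8%), and H3K4me3 regions with H3K27me3 were 50% (72.6%) and 100% (78%). On chromosome 13, 85.7% of H3K27me3 and 100% of H3K4me3 regions were then shared between lines. When H3K4me3 had to span 50% of an H3K27me3 region, 0% of H3K27me3 regions on chromosome 13 and 5.12% on chromosome 8 counted as holding it. With the lists limited to a common lowest score, 32.5% did on chromosome 8. Leaving out a line gave 13 to 20 islands on chromosome 8, where both lines gave 21, and 13 on chromosome 13 either way. The H3K27me3 cover ratio of CGR8 over R1 was 2.39 in the higher-scoring 50% and 2.7 with a common lowest score on chromosome 8, and 1.17 and 1.41 on chromosome 13. No paired analysis was possible because the results come from no test. Clusters and marks are set side by side within each line.

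Each line and mark has 1 library, so no difference between lines has a replicate check. The score has no stated formula or unit. Island numbers depend on where calls were split. Read depth of R1 for H3K27me3 rests on 2 short regions.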
